A study of Mus musculus with 109 samples.

Results

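Lungs of mice that lack Fam13a were compared with lungs of wild-type mice after both had breathed cigarette smoke. The comparison takes 13 Fam13a-/- arrays and 28 wild-type arrays, chosen by their strain, genotype and treatment labels alone. These 41 arrays are part of a larger series, whose other 68 arrays hold the remaining genotypes, strains and exposures. Both groups carry the strain label C57BL6. The smoke was a mixture of main-stream and side-stream smoke from 3R4F research cigarettes, given on 5 days a week for 6 months. Fam13a-/- and wild-type mice that breathed filtered air, with 6 and 22 arrays, and smoke-exposed mice of the same strain labelled Hhip+/-, with 14, were set beside them. The labels give neither the age or sex of the mice nor how the Fam13a allele was made, and they do not say that each array is a separate animal. The p-values therefore rest on the spread from array to array, part of which may be technical.

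In humans Fam13a lies at a well replicated risk locus for chronic obstructive pulmonary disease (COPD), and work in mice and cells has tied it to the breakdown of beta-catenin, the effector of Wnt signalling, and to fatty acid oxidation. Smoke itself acts on the lung through several routes, among them the aryl hydrocarbon receptor (AhR), a sensor of polycyclic hydrocarbons that switches on enzymes which oxidise them, and the airway lining of ciliated and secretory cells that clears inhaled particles.

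Values are log2 signals of single-colour bead arrays after background correction and quantile normalization. Between 43.9% and 53.7% of probes were detected on each of the 41 arrays, with a median of 48.6% in Fam13a-/- and 50.1% in wild-type smoke. The lung markers Sftpc, Ager, Scgb1a1 and Pecam1 were detected on 41 of 41 arrays. The Y-linked probes of Kdm5d and Eif2s3y were detected on 0 of the 69 arrays of the wild-type and Fam13a-/- groups, and that of Uty on 15. The Fam13a probe was dim: it ran from 4.97 through a median of 6.11 to 7.16 in wild-type smoke and from 4.59 through 5.39 to 6.15 in Fam13a-/- smoke, so that the groups overlapped. It was detected on 20 of 28 wild-type and 7 of 13 Fam13a-/- arrays. Its difference was -0.61 ± 0.25 (log2, SE), with 12 of 13 Fam13a-/- arrays below the wild-type mean, and did not pass the threshold (limma adjusted p = 0.149). No source used here says whether the probe lies inside the deleted part of the gene, so it does not check the labels. The paralogue Fam13c fell by 0.42 ± 0.12 (limma adjusted p = 0.0246), a call that ended when the 3 Fam13a-/- arrays with the fewest detected probes and 8 arrays of other groups were left out (limma adjusted p = 0.183).

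Under smoke, 706 of 11346 genes differed between the genotypes, 427 higher and 279 lower in Fam13a-/- lungs (limma adjusted p under 0.05; background 6.22% in either direction, 3.76% higher and 2.46% lower). The differences were mostly small. Their median size was 0.45 on the log2 scale, and 16 genes were higher and 2 lower by 1 or more. The genes higher in Fam13a-/- smoke included genes of cilia, of airway secretions, of heart muscle and of fat, and those lower included AhR target genes, endothelial genes, matrix genes and Wnt pathway genes. For 0 of the 11346 genes did the values of the groups fail to overlap (0%). These are whole lungs, so fewer cells of a type and less RNA per cell cannot be told apart.

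The 6 genes with the smallest adjusted p were all higher in Fam13a-/- smoke. Chek2, a kinase of the DNA damage checkpoint, ran from 5.83 through a median of 6.96 to 7.95 in wild-type smoke and from 7.25 through 7.85 to 8.35 in Fam13a-/- smoke. Every Fam13a-/- array lay above the wild-type mean and 6 of 13 above the highest wild-type array, a difference of 0.88 ± 0.13 (1.84-fold, limma adjusted p = 4.36e-06). Aoc1, the diamine oxidase that degrades histamine, ran from 7.90 through 8.82 to 9.73 in wild-type and from 9.11 through 9.87 to 10.66 in Fam13a-/- smoke. It was 2.04-fold higher (difference 1.03 ± 0.15, limma adjusted p = 7.83e-06), with 8 of 13 arrays above every wild-type array. Kcnrg, a regulator of potassium channels, came closest to separating the groups: 12 of 13 Fam13a-/- arrays lay above the highest wild-type array, and the remaining one was at 8.31 against a wild-type range of 7.71 to 9.03. It was 1.86-fold higher (limma adjusted p = 5.24e-05). Sncg, which encodes gamma-synuclein, was 1.67-fold higher, Drc3, a subunit of the regulatory complex of ciliary dynein, 1.60-fold, and Acsl3, an enzyme that activates long-chain fatty acids, 1.41-fold. Cyp2a5, a xenobiotic-oxidising cytochrome P450, ran from 9.85 through 10.97 to 12.38 in wild-type and from 11.09 through 12.30 to 12.91 in Fam13a-/- smoke, 2.21-fold higher with 13 of 13 arrays above the wild-type mean (difference 1.15 ± 0.24, limma adjusted p = 0.00102). In air Cyp2a5 differed by 0.86 ± 0.33 in the same direction (unadjusted limma p = 0.0108, adjusted p = 0.646).

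**Figure D1:**
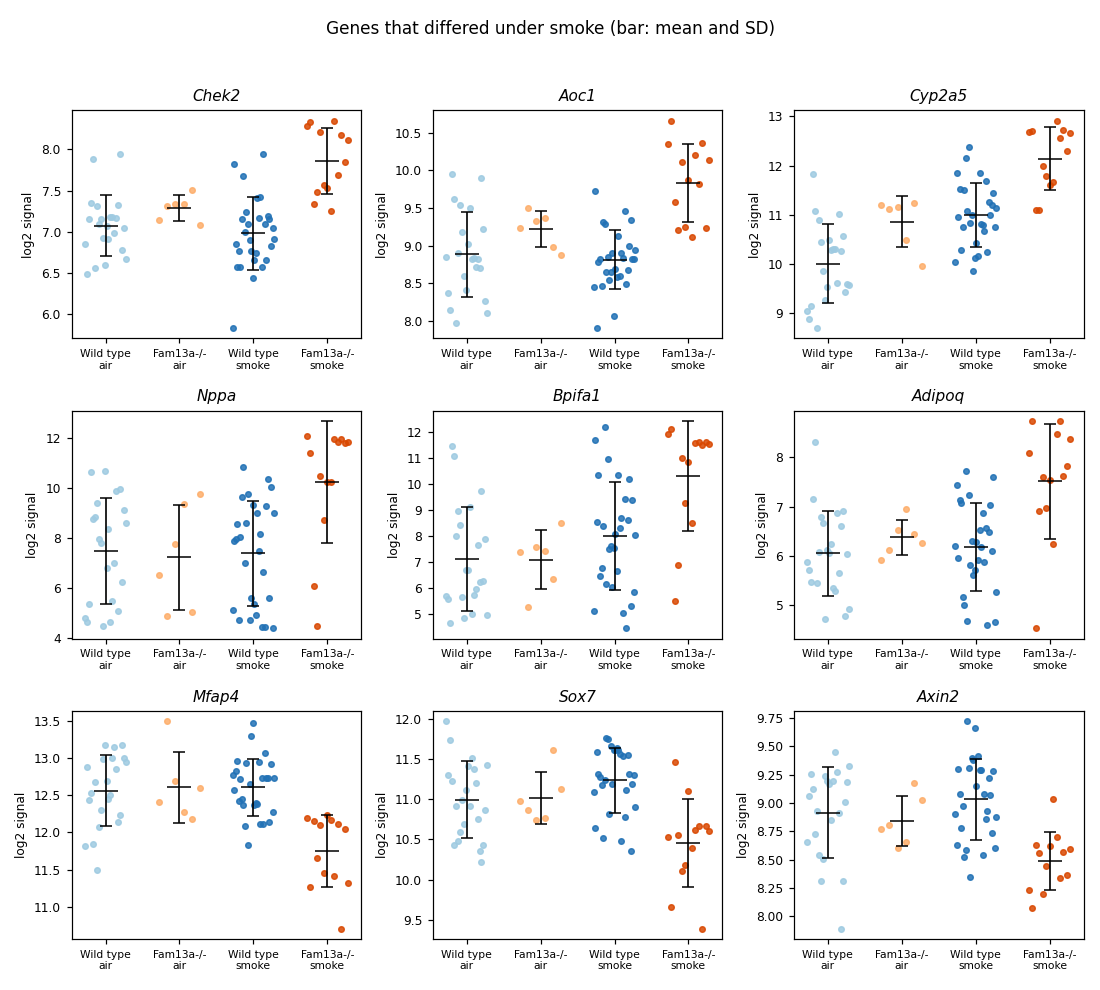
Log2 signal (vertical axes) of 9 genes on each array, by genotype and exposure (horizontal axes); points are arrays and bars are means with SD. Chek2, Aoc1 and Cyp2a5 lie high in 13 of 13 Fam13a-/- smoke arrays, Nppa, Bpifa1 and Adipoq lie above the wild-type mean in 11, 11 and 12 of them, and Mfap4, Sox7 and Axin2 lie low.

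Transcripts of the AhR response were lower in smoke-exposed Fam13a-/- than in smoke-exposed wild-type lungs. Of 6 AhR targets tested, 3 fell and 0 rose, against 2.46% and 3.76% of all genes, and the median difference of the list was -0.42 against -0.02 over all genes. The members that fell are the cytochromes P450 Cyp1a1 and Cyp1b1 and the AhR repressor Ahrr, each a direct target gene of the receptor. Their promoters are shown because the receptor binds the core sequence GCGTG, and that core, on either strand, is in capitals. The sequences are RefSeq's, build GRCm38.p6, 300 bases around the start of the gene, most of them before it.
Cyp1a1, chr9:57697363-57697662, plus strand: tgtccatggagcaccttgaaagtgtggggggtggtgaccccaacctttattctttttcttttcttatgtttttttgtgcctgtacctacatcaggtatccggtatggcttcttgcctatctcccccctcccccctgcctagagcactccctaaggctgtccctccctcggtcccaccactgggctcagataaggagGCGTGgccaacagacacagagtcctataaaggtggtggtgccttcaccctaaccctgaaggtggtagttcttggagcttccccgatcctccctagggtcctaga
Cyp1b1, chr17:79715012-79715311, minus strand: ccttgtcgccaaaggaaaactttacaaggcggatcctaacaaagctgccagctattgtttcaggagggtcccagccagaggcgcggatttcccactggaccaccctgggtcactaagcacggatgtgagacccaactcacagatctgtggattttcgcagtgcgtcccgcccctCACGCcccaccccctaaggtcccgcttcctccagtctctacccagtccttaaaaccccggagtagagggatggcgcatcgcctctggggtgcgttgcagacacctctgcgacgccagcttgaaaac
Ahrr, chr13:74292282-74292581, minus strand: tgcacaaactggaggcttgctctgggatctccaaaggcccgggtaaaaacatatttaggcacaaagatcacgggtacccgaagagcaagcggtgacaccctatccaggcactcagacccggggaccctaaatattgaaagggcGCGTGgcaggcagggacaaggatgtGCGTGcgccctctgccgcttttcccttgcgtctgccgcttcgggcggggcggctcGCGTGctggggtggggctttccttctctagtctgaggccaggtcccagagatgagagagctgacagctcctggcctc
The core stood once in the promoter of Cyp1a1, once in that of Cyp1b1 and 3 times in that of Ahrr. Of 5 tested members with a promoter in the table, 3 held it, as did 32.5% of the promoters of 27025 genes. A match of so short a motif is a description of these letters, not a site of binding.

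Cyp1a1 ran from 4.30 through a median of 6.33 to 8.44 in wild-type smoke and from 4.33 through 4.43 to 6.22 in Fam13a-/- smoke. It was detected on 20 of 28 wild-type smoke arrays, 4 of 13 Fam13a-/- smoke arrays and 0 of the 28 arrays of mice that breathed air. The highest Fam13a-/- array thus lay below the wild-type median, while 8 of the 28 wild-type arrays gave no detected signal either. The fitted difference was -1.31 ± 0.24 (limma adjusted p = 0.000251), and since most Fam13a-/- arrays were not above background it is no exact size: in the deposited log2 values it was -0.44. Cyp1b1 ran from 6.48 through 10.21 to 11.52 in wild-type smoke and from 6.95 through 8.0 to 10.05 in Fam13a-/- smoke, 2.62-fold lower (difference -1.39 ± 0.34, limma adjusted p = 0.00545). This call ended without the arrays of fewest detected probes (limma adjusted p = 0.0732). The medians of Cyp1b1 in air were 6.92 in wild type and 7.01 in Fam13a-/-, so the Fam13a-/- smoke median stood between the air level and the wild-type smoke level. Ahrr was detected on 20 of 28 wild-type and 0 of 13 Fam13a-/- smoke arrays, which makes it at least 1.21-fold lower, the wild-type mean against the lowest signal of detected probes or the probe's own signal on each Fam13a-/- array (fitted difference -0.69 ± 0.15, limma adjusted p = 0.00131). The remaining tested members did not pass: Nqo1 differed by 0.06 ± 0.23, Aldh3a1 by -0.16 ± 0.24 and Ugt1a6a by 0.36 ± 0.19.

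The 3 genes were also low in the smoke-exposed lungs labelled Hhip+/-. Cyp1a1 was detected on 4 of 14 smoke arrays labelled Hhip+/-, which ran from 4.37 through 4.82 to 5.82, and Ahrr on 5 of 14. Fam13a-/- minus Hhip+/- differences under smoke were -0.05 for Cyp1a1, -0.49 for Cyp1b1 and -0.03 for Ahrr (limma adjusted p = 0.946, 0.457 and 0.934).

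**Figure D2:**
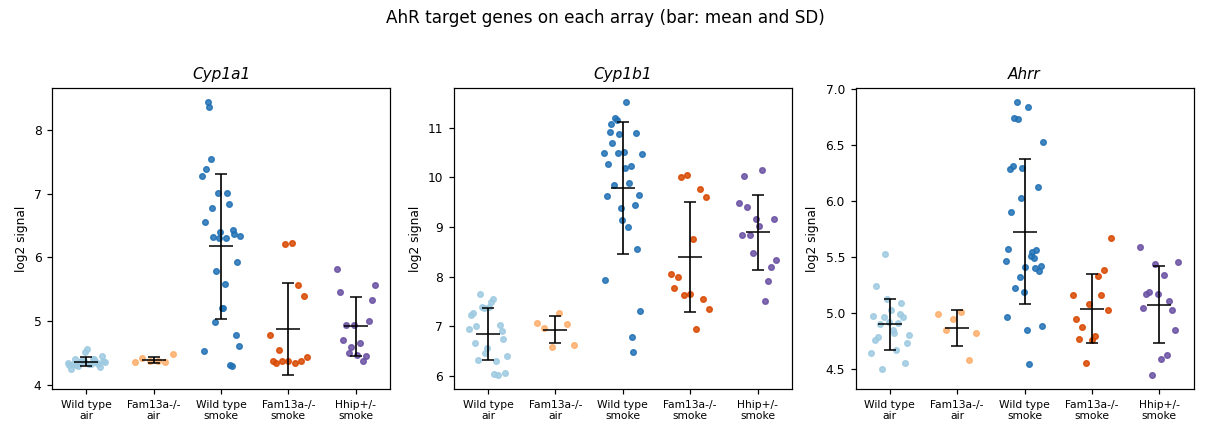
Log2 signal (vertical axes) of Cyp1a1, Cyp1b1 and Ahrr on each array in 5 groups (horizontal axes); points are arrays and bars are means with SD. The wild-type smoke arrays spread upward from the air level, and most smoke arrays of Fam13a-/- lungs and of those labelled Hhip+/- stay in the lower part of that spread.

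Genes of motile cilia were higher in Fam13a-/- smoke as a group. Of 12 ciliated cell markers tested, 9 rose and 0 fell (background 3.76% and 2.46%), and the list's median difference was 0.60. The number called was 2 with median scaling in place of quantile normalization, where Tekt1, Mlf1 and Ccdc113 did not pass, and 5 without the arrays of fewest detected probes. Tekt1, a tektin of the ciliary microtubules, ran from 8.94 through a median of 9.35 to 10.18 in wild-type and from 9.47 through 10.05 to 11.14 in Fam13a-/- smoke, with 13 of 13 arrays above the wild-type mean (difference 0.70 ± 0.13, 1.63-fold, limma adjusted p = 0.000262). Ccdc40, which sets the spacing of the axoneme, was 1.59-fold higher, Mlf1 1.54-fold and Ccdc113, a ciliary coiled-coil protein, 1.53-fold. The groups overlapped for all of these, with 4, 5, 7 and 7 of 13 Fam13a-/- arrays above the highest wild-type array for Tekt1, Ccdc40, Mlf1 and Ccdc113. The other 5 that rose were Ccdc39, Rsph1, Tppp3, Dnaic1 and the master regulator of motile cilia Foxj1, by 0.40 to 0.62, and Sntn (0.81 ± 0.28, limma adjusted p = 0.0628) and Hydin (0.19 ± 0.14) did not pass. Dnah5 was detected on 0 of the 41 arrays. Other symbol families that hold ciliary genes were counted after the data were seen. Of 13 tested symbols beginning Cfap 8 rose, of 7 beginning Dnah, Dnai or Dnal 3, of 5 beginning Tekt or Rsph 3, of 12 beginning Ift 3, of 8 beginning Spag 2 and of 68 beginning Ccdc 11, and 0 of any of them fell.

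Promoters of 3 of these genes are shown for the letters GTTGCC, a half-site of the X-box that RFX factors bind in ciliary genes, in capitals on either strand. They are from the same table and build.
Tekt1, chr11:72361833-72362132, minus strand: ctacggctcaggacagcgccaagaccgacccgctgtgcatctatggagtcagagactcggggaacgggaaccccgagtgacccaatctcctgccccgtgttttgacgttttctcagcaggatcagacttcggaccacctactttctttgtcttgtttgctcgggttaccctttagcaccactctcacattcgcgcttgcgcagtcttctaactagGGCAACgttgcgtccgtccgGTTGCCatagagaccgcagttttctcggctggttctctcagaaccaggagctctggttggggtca
Mlf1, chr3:67373847-67374146, plus strand: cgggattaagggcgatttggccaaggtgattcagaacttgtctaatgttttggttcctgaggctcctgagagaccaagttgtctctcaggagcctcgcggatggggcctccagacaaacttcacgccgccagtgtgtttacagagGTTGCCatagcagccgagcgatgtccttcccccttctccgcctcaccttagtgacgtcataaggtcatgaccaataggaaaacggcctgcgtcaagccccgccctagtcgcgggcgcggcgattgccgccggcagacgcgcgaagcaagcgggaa
Ccdc113, chr8:95533850-95534149, plus strand: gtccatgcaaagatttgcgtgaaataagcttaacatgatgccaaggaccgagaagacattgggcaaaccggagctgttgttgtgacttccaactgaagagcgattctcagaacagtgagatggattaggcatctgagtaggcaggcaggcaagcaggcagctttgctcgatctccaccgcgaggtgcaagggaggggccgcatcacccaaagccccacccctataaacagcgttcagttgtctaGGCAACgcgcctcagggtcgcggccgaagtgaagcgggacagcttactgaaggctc
Tekt1, whose first of 2 listed promoters is printed, held the half-site 2 times, and Mlf1 and Ccdc113 held it once. Ccdc40 held it 0 times. Of the 9 tested ciliated markers with a promoter in the table, 5 held it (55.6%), as did 12.7% of the promoters of all 27025 genes.

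The mean log2 level over the 12 ciliated markers ran from 7.74 through 7.93 to 8.79 in Fam13a-/- smoke and from 7.19 through 7.51 to 8.02 in wild-type smoke. All 13 Fam13a-/- arrays lay above the wild-type median and 6 above the highest wild-type array. In air the same level ran from 7.33 to 7.83 in Fam13a-/- and from 7.16 to 7.97 in wild type. The ciliated level averages the 12 markers, 9 of them called, so it carries part of the genotype difference. When each array's level entered the fit as a covariate, chosen after seeing the data, 0 genes passed in limma (1420 at an unadjusted p under 0.05, smallest adjusted p = 0.0511). For the markers themselves a smaller difference is built in. The fit thus cannot tell a genotype difference apart from one in ciliated genes. Of the 706 genes, 636 kept their sign, with a median size of 0.17 in place of 0.45, and the median SE rose from 0.11 to 0.12.

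Secreted proteins of the airway and its glands showed the largest rises after Nppa. Of 14 club and secretory cell genes tested, 6 rose and 0 fell (background 3.76% and 2.46%). Bpifa1, an antimicrobial protein of the airway surface, ran from 4.46 through a median of 8.07 to 12.20 in wild-type smoke and from 5.50 through 11.49 to 12.12 in Fam13a-/- smoke (difference 2.31 ± 0.68, 4.97-fold, limma adjusted p = 0.0246). No Fam13a-/- array exceeded the wild-type range: 11 of 13 lay above the wild-type mean, and replicates 3 and 4 lay low, at 5.50 and 6.91. Its relative Bpifb1 was 3.69-fold higher, Gp2, a receptor for bacteria on epithelial cells, 3.63-fold, and the antibacterial lectin Reg3g 2.89-fold. Gp2 was detected on 33 and Reg3g on 26 of 41 arrays, so their folds are no exact sizes. Their fitted differences were 1.86 and 1.53, and those in the deposited log2 values 1.08 and 0.69. Bpifb1 was called in 18, Reg3g in 30 and Gp2 in 41 of 41 fits that left out 1 array. The other members that rose were lactoferrin, Ltf, 2.03-fold, and Cyp2f2, a club cell cytochrome P450, by 0.31 ± 0.07. Scgb1a1, the main secretory product of club cells, differed by -0.01 ± 0.06. The Ltf call also stands for the neutrophil list, where 1 of 10 tested members rose. Of the 14 tested genes, between 2 and 7 were called higher when 1 array was left out, fewest without Fam13a-/- smoke replicate 2. Without the arrays of fewest detected probes 0 were called.

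Some heart muscle genes rose as well. Of 16 tested, 4 rose and 0 fell (background 3.76% and 2.46%), and 16 of 16 differences were above 0, with a median of 0.88. The number called was 1 to 6 when 1 array was left out, fewest without Fam13a-/- smoke replicate 13, 2 with median scaling and 0 without the arrays of fewest detected probes. Nppa, the atrial natriuretic peptide precursor, had the largest rise of all: it ran from 4.40 through a median of 7.93 to 10.85 in wild-type and from 4.47 through 11.41 to 12.07 in Fam13a-/- smoke (difference 2.84 ± 0.72, 7.17-fold, limma adjusted p = 0.00684). Of the 13 arrays, 7 reached beyond the wild-type range, and replicates 3 and 4, the low ones for Bpifa1, were again lowest, at 6.09 and 4.47. The other 3 that rose were its ventricular relative Nppb, the cardiac troponin Tnni3 (0.75) and the cardiac myosin-binding protein Mybpc3. Nppb was detected on 2 of 28 wild-type and 5 of 13 Fam13a-/- smoke arrays and Mybpc3 on 8 and 9, so no size is given for them. Tnni3 was called in 20 of 41 fits that left out 1 array. The mean log2 level of the 16 genes ran from 6.22 through 9.61 to 10.09 in Fam13a-/- smoke and from 5.76 through 8.65 to 9.72 in wild-type smoke. Every tested heart gene was detected on at least 1 of the 41 arrays. With this level as a covariate, chosen after seeing the data, 353 of the genes in the comparison passed (219 higher, 134 lower). Among them were 7 ciliated, 3 AhR, 2 endothelial and 1 secretory gene of the lists. The level averages 16 genes whose differences were all above 0, so it carries part of the genotype difference. For the heart genes themselves a smaller difference is built in. The part of the heart muscle level in the other results was not tested further.

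Fat cell genes rose as well, 3 of 8 tested with 0 falling (background 3.76% and 2.46%). Adipoq, the fat hormone adiponectin, ran from 4.60 through 6.2 to 7.73 in wild-type and from 4.53 through 7.62 to 8.74 in Fam13a-/- smoke, 2.52-fold higher (limma adjusted p = 0.00233), with 6 of 13 arrays above and 1 below the whole wild-type range. Cidea, a lipid droplet protein, was 1.48-fold higher. Lep, which encodes leptin, was detected on 6 of 13 Fam13a-/- and 0 of 28 wild-type smoke arrays (fitted difference 0.58 ± 0.10, limma adjusted p = 0.000141), and its signal was too near background for a fold. Further large rises outside the lists were Gtsf1l (2.71-fold), Car3, a carbonic anhydrase of fat and muscle (2.56-fold) and Serpina9, a protease inhibitor (2.43-fold). These were detected on 22, 21 and 18 of 28 wild-type smoke arrays. In the deposited log2 values their differences were 0.68, 0.69 and 0.49, in place of 1.44, 1.36 and 1.28 in the fit. Cdhr1 and Cyp4a12b, a fatty acid hydroxylase, also passed, but were detected on 5 and 13 of 28 wild-type smoke arrays, and no fold is given for them.

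**Figure D3:**
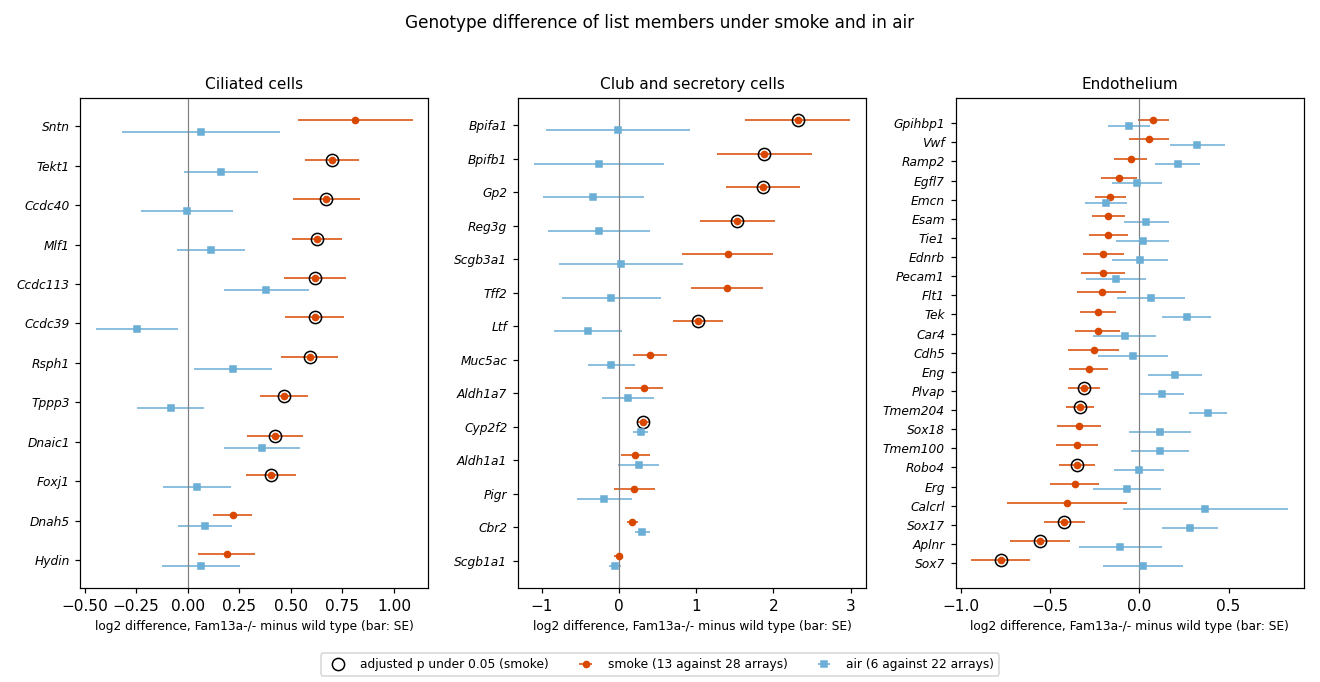
Log2 difference, Fam13a-/- minus wild type (horizontal axes, bars are SE), of each tested member of 3 lists (vertical axes), under smoke (circles) and in air (squares); ringed points passed under smoke. The ringed ciliated and secretory genes lie to the right of 0 and the ringed endothelial genes to the left, and most air values lie near 0.

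Endothelial genes were lower in Fam13a-/- smoke by small amounts. Of 24 tested, 6 fell and 0 rose (background 2.46% and 3.76%), and 22 of 24 differences were below 0, with a median of -0.24. Sox7, a transcription factor of vessel walls, ran from 10.36 through a median of 11.29 to 11.75 in wild-type and from 9.39 through 10.56 to 11.46 in Fam13a-/- smoke, with 12 of 13 arrays below the wild-type mean (difference -0.78 ± 0.16, 1.71-fold lower, limma adjusted p = 0.00106). Aplnr, the apelin receptor, fell by 0.56 ± 0.17, Sox17, a relative of Sox7, by 0.42 ± 0.11 and Robo4, an endothelial guidance receptor, by 0.35 ± 0.10; the others were Tmem204 and Plvap. The pan-endothelial marker Pecam1 differed by -0.20 ± 0.12 (limma adjusted p = 0.394). The list's level ran from 10.53 to 11.19 in Fam13a-/- smoke and from 10.61 to 11.34 in wild-type smoke. Only 1 member was called with median scaling in place of quantile normalization, and 2 with the heart muscle level as a covariate. Without the arrays of fewest detected probes 3 were called, and Sox17 did not pass (limma adjusted p = 0.104). Aplnr was called under 10 of 16 alternative settings of the processing.

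A few matrix and mural genes were lower. Of 24 extracellular matrix genes tested, 3 fell and 0 rose (background 2.46% and 3.76%), and with median scaling 1 was called. Mfap4, a protein of elastic fibres, ran from 11.84 through 12.68 to 13.47 in wild-type and from 10.71 through 12.05 to 12.23 in Fam13a-/- smoke. All 13 Fam13a-/- arrays lay below the wild-type mean and 6 below the lowest wild-type array (difference -0.85 ± 0.16, 1.80-fold lower, limma adjusted p = 0.000252). Sparc and Ogn, matrix-associated glycoproteins, fell by 0.38 and 0.36, while the collagens Col1a1 and Col3a1 (-0.30 ± 0.17 and -0.38 ± 0.29) did not pass. In the list of smooth muscle and pericytes 2 of 16 fell and 0 rose, against the same background. Pdgfrb, the pericyte growth factor receptor, fell by 0.55 ± 0.16 and Mylk, myosin light chain kinase, by 0.51 ± 0.15. Between 0 and 2 of the 16 were called when 1 array was left out, fewest without Fam13a-/- smoke replicate 2. Other large falls were Epha3, an ephrin receptor (1.75-fold), Crispld2, a secreted lung protein (1.65-fold), Hsd3b2 (1.63-fold), Ctnnd2, a delta-catenin (1.61-fold), and Taf15, an RNA-binding protein (1.59-fold). Hsd3b2 was called in 16 of 41 fits that left out 1 array, and the others in all 41. Epha3 was detected on 7 of 13 Fam13a-/- arrays, and Lama1, a laminin chain that also passed, on 1, so no fold is given for Lama1. In the deposited log2 values Epha3 differed by -0.25 and Ctnnd2 by -0.21, in place of -0.81 and -0.69 in the fit.

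In the Wnt and beta-catenin pathway 4 of 26 genes fell and 0 rose (background 2.46% and 3.76%), with a list median of -0.13. Axin2, a feedback inhibitor and widely used readout of the pathway, ran from 8.34 through 9.07 to 9.72 in wild-type and from 8.08 through 8.56 to 9.04 in Fam13a-/- smoke, with 12 of 13 arrays below the wild-type mean (difference -0.54 ± 0.11, 1.46-fold lower, limma adjusted p = 0.000638). The ligand Wnt7a fell by 0.52 ± 0.16, the receptor Fzd7 by 0.40 ± 0.10 and the transcription factor Tcf7l2 by 0.37 ± 0.11. Ctnnb1, which encodes beta-catenin, differed by -0.11 ± 0.17, and the target genes Ccnd1 and Sp5 by 0.07 ± 0.08 and -0.27 ± 0.15, none of them passing. With median scaling 1 of the 4 was called.

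Among 16 genes at loci for COPD or lung function, Dlc1 and Hhip, the inhibitor of Hedgehog ligands, fell (Hhip by 0.45 ± 0.13, limma adjusted p = 0.0197) and Cyp2s1 rose by 0.38 ± 0.11. Over all genes 2.46% fell and 3.76% rose. Dlc1, a gene known as a tumour suppressor, was detected on 18 of 28 wild-type and 1 of 13 Fam13a-/- arrays, so its fitted difference (-0.72, limma adjusted p = 0.00693) is no exact size: it was -0.38 without background correction and -0.20 in the deposited log2 values. The Hhip call was lost in 2 of 41 fits that left out 1 array (largest adjusted p = 0.0565).

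Fatty acid oxidation genes lay slightly above wild type, 18 of 19 with a difference above 0 and a median of 0.16, but 1 passed, the mitochondrial acylcarnitine carrier Slc25a20 (0.21 ± 0.07, limma adjusted p = 0.0458), called in 19 of 41 fits that left out 1 array. Cpt1b, a carnitine palmitoyltransferase, differed by 0.51 ± 0.18 (adjusted p = 0.0673). Of 29 genes of oxidative phosphorylation, Atp5g1 and Cox4i1 rose, by 0.29 and 0.19, Cox4i1 in 18 of those 41 fits. Background for every list in this paragraph was 3.76% higher and 2.46% lower. The calls in fatty acid oxidation and oxidative phosphorylation lie near it. Of 23 genes of the oxidant response governed by NRF2, 0 passed, and Hmox1, haem oxygenase, differed by -0.69 ± 0.23 (limma adjusted p = 0.0546). Leukocyte lists held few calls: 0 of 14 genes of alveolar macrophages, 0 of 11 of B cells and 0 of 16 of T and NK cells passed. Of these, 13, 10 and 9 had a difference below 0, with medians of -0.19, -0.20 and -0.04. Among 10 neutrophil genes 9 differences were above 0, with a median of 0.24 and 1 call. All 9 plasma cell genes had a difference above 0, with a median of 0.20 and 0 calls. Of 29 chemokines and cytokines 1 fell, Cxcl12, a chemokine made by stromal cells, by 0.46 ± 0.11. In a fit of every kept probe, other Cxcl12 probes differed by 0.13 and -0.19 and did not pass (limma adjusted p = 0.7995 and 0.6405). In the interferon list of 19 tested, Usp18 rose by 0.34 and Ifit2 and Gbp2 fell by 0.39 and 0.37, Gbp2 in 12 of the 41 fits. In the list of dendritic cells 1 of 9 tested fell, Cd209a by 0.47, in 23 of the 41 fits. In the deposited log2 values the Cd209a difference was -0.12 and did not pass. Among proteases and inhibitors Adam8, a membrane protease of leukocytes, rose by 0.62 and Mmp11 fell by 0.39. Other lists with 1 call were those of heat shock (Dnaja1, 0.67, 12 tested), cholesterol synthesis (Sqle, 0.27, 17 tested) and the unfolded protein response (Herpud1, 0.20, 16 tested). Complement (Serping1, -0.26, 9 tested) and immediate early genes (Ier3, -0.39, 18 tested) held 1 call each. Most heat shock (10 of 12) and complement (6 of 9) differences lay opposite to the called gene, with medians of -0.12 and 0.14. Ier3 was called in 25 of the 41 fits. Without the arrays of fewest detected probes Dnaja1 did not pass (limma adjusted p = 0.0794). Type 1 and type 2 alveolar epithelial markers gave 0 calls of 9 and 15.

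**Figure D4:**
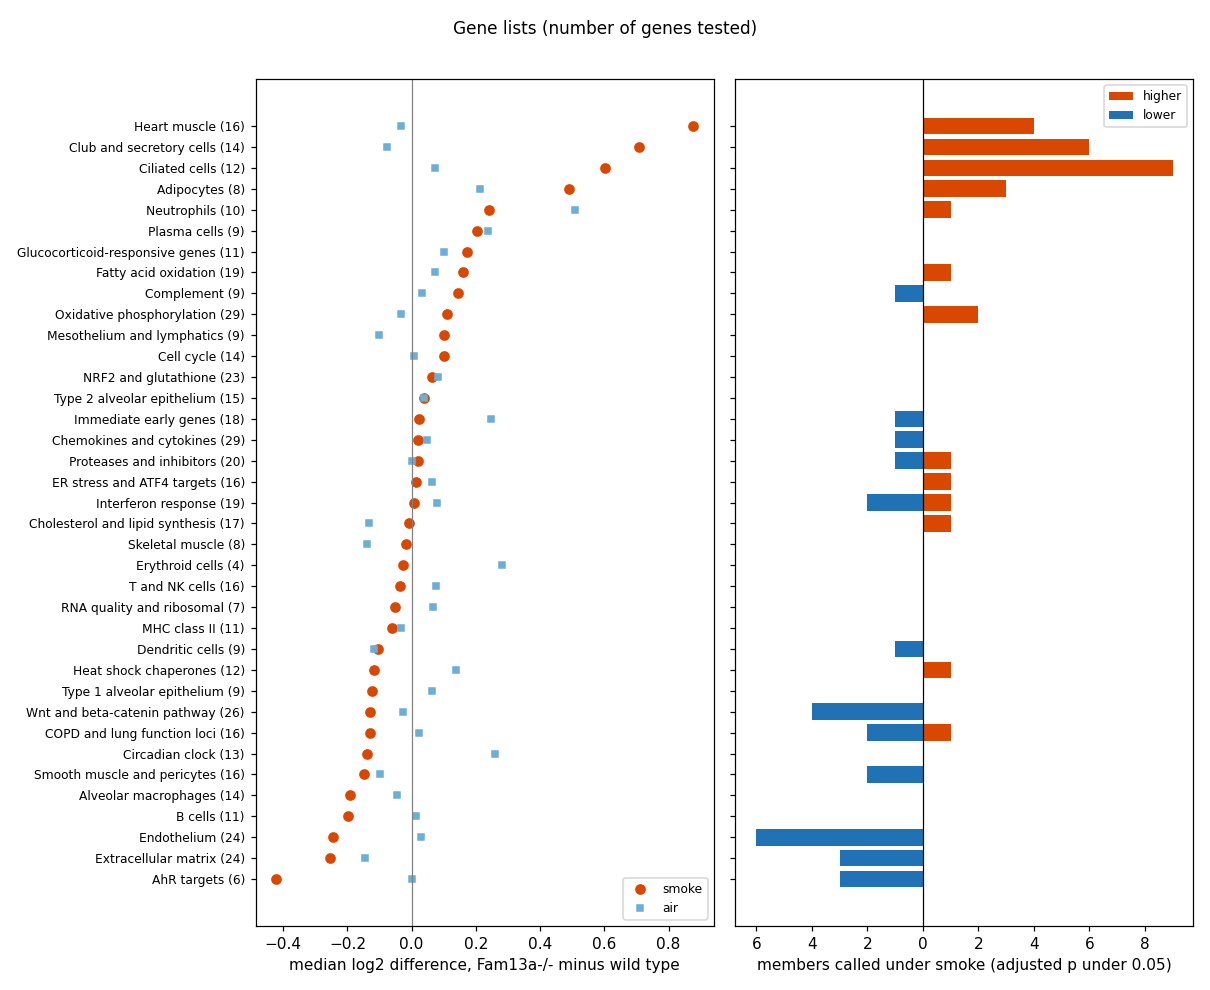
Left, median log2 difference, Fam13a-/- minus wild type, of the gene lists reported (number tested in brackets) under smoke and in air. Right, number of members called higher or lower under smoke; heart muscle, secretory, ciliated and fat genes stand at the top and AhR, matrix and endothelial genes at the bottom, while air medians of these lists lie nearer 0 with fat genes at 0.21.

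In filtered air, 0 of 11346 genes differed between the genotypes (0%; 691 or 6.09% at an unadjusted limma p under 0.05, smallest adjusted p = 0.19). With 6 Fam13a-/- arrays the median SE was 0.15, against 0.11 under smoke. No array is shared with the smoke comparison. Of the 427 genes higher under smoke, 242 (56.7%) were also above 0 in air, where 51.2% of all genes were. Of the 279 lower, 129 (46.2%) were below 0 in air, where 48.8% of all genes were. Tekt1 differed by 0.16 ± 0.18 in air, Chek2 by 0.21 ± 0.17, Nppa by -0.25 ± 0.99, Bpifa1 by -0.01 ± 0.94, Mfap4 by 0.05 ± 0.22, Axin2 by -0.08 ± 0.15 and Cyp1a1 by 0.03 ± 0.33. Among the 706 genes, those with an unadjusted p under 0.05 in air were 32 with the same sign as under smoke and 17 with the opposite sign. With array quality weights, which let noisy arrays count less, 316 genes passed in air.

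The genotype difference itself differed between smoke and air for 6 genes (0.0529%), 3 with a more positive and 3 with a more negative difference under smoke (0.0264% each). Tmem204, a membrane protein of endothelial junctions, ran from 12.37 through 12.66 to 12.89 in wild-type and from 11.97 through 12.18 to 12.92 in Fam13a-/- smoke, a fall of 0.33 ± 0.08 (difference -0.33, limma adjusted p = 0.00343). In air it ran from 12.01 through 12.54 to 12.80 in wild-type and from 12.69 upward, with a mean of 12.88 ± 0.10 (SD, n = 6), in Fam13a-/- lungs, a difference of 0.38 ± 0.11 the other way with 6 of 6 arrays above the wild-type mean. The difference of these differences was -0.72 ± 0.13 (limma adjusted p = 0.00449). Gdpd2, a glycerophosphodiester phosphodiesterase, showed the reverse order. It ran from 6.28 through 7.29 to 8.08 in wild-type and from 6.97 through 7.89 to 8.31 in Fam13a-/- smoke (difference 0.55 ± 0.16, limma adjusted p = 0.0203), and from 6.22 through 7.50 to 8.16 and from 6.37 through 6.79 to 7.08 in air (difference -0.70 ± 0.22). Its interaction was 1.25 ± 0.27 (limma adjusted p = 0.0265). With median scaling the smoke differences of Tmem204 and Gdpd2 did not pass (limma adjusted p = 0.122 and 0.118). Nor did they pass without the arrays of fewest detected probes (limma adjusted p = 0.0718 and 0.0608).

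The other named genes of this kind were Myh9, the heavy chain of non-muscle myosin II (interaction -0.72 ± 0.15, limma adjusted p = 0.023), Hdac5, a class II histone deacetylase (-0.68 ± 0.15, adjusted p = 0.0491), and C1rl, a relative of complement C1r (0.77 ± 0.18, adjusted p = 0.0491). Myh9 and Hdac5 fell under smoke by 0.34 and 0.32 and differed by 0.38 and 0.36 in air, and C1rl differed by 0.31 under smoke (limma adjusted p = 0.0509) and by -0.46 in air. The smoke falls of Myh9 and Hdac5 did not pass with median scaling (limma adjusted p = 0.1705 and 0.2005). Without the arrays of fewest detected probes they did not pass either (limma adjusted p = 0.0885 and 0.131). In air none of the 5 passed, with adjusted p between 0.492 and 0.54. In a fit of every kept probe, a second C1rl probe gave an interaction of -0.22, opposite in sign (limma adjusted p = 0.673). Other probes of Gdpd2 (0.76) and Hdac5 (-0.32 and -0.49) kept the sign but did not pass (limma adjusted p = 0.1655, 0.683 and 0.22). Leaving out 1 Fam13a-/- air array at a time gave between 1 and 12 interaction genes, 1 without replicate 1 and 12 without replicate 5, and median scaling gave 0, as did leaving out the arrays with the fewest detected probes. With blocks of 8 consecutive sample numbers in the fit, 15 negative and 0 positive interactions passed. The positive interactions of Gdpd2 and C1rl were thus not called there.

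**Figure D5:**
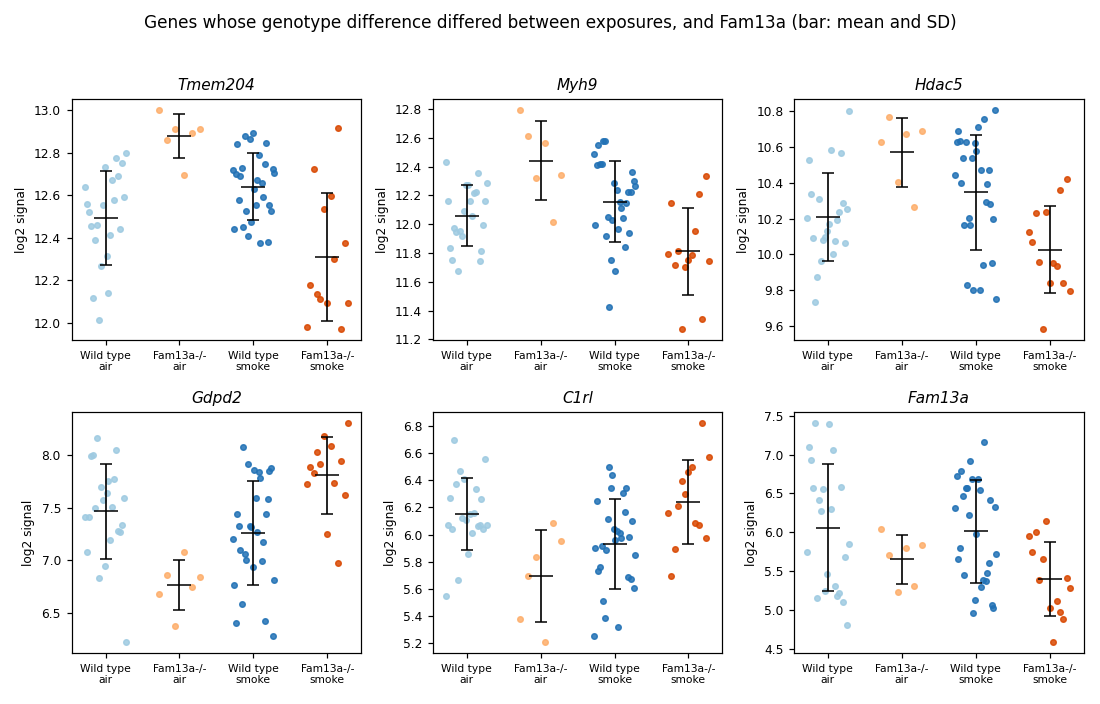
Log2 signal (vertical axes) of the 5 named genes whose genotype difference differed between exposures, and of Fam13a, on each array by genotype and exposure (horizontal axes); bars are means with SD. Tmem204, Myh9 and Hdac5 lie higher in Fam13a-/- than in wild type in air and lower under smoke, Gdpd2 and C1rl the other way round, and Fam13a signals overlap in all groups.

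In the smoke-exposed lungs labelled Hhip+/-, after another COPD gene, the Hhip probe ran from 5.88 through a median of 6.46 to 7.13, and in wild-type smoke from 5.47 through 6.48 to 7.29. The means, 6.46 and 6.49, thus do not show the lower level that the label would give, and the probe was lower in Fam13a-/- smoke than in them (difference -0.42, limma adjusted p = 0.0419). No source used here says whether the probe lies in the disrupted part, so the label is kept as given and not checked. Against these lungs, 1544 genes differed (808 higher and 736 lower in Fam13a-/-, background 13.6% in all, 7.12% higher and 6.49% lower). The same 13 Fam13a-/- arrays enter both comparisons, so the values are given side by side. Tekt1 was 0.80 higher than in Hhip+/- and 0.70 higher than in wild type, Chek2 0.92 and 0.88, and Nppa 3.26 and 2.84. Mfap4 was lower by 0.90 and 0.85 (differences -0.90 and -0.85), Axin2 by 0.54 and 0.54 (-0.54 and -0.54). Of the ciliated, heart muscle and matrix lists, 9 of 12 and 10 of 16 were higher and 12 of 24 lower than in Hhip+/-, against 9, 4 and 3 from wild type. The genes with the smallest adjusted p were Ccn5, a matricellular protein (-1.43 from Hhip+/-, -0.23 from wild type), Wdpcp, a planar polarity effector needed for cilia (0.99 and 0.48), Gtsf1l (2.23 and 1.44), Cfap299 (1.0 and 0.68) and Chst3, a chondroitin sulfotransferase (-1.21 and -0.26).

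Genes beside Fam13a on chromosome 6 were read in the same fit. Of the 20 annotated protein-coding genes on each side, 9 of 40 were tested and 0 passed under smoke, with differences from -0.49 to 0.12 and a median of -0.10. Another 41 kept probes of the named genes were measured, and under smoke 3 of them had the opposite sign to the probe used, none past the threshold.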

How the data were processed

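Each lung RNA sample was hybridised to 1 Illumina bead array with a single label. The authors deposited a probe intensity and a detection p-value for 25697 probes. Per the file headers these were not normalized, and how the scanner software made them is not stated. They also deposited normalized log2 values by a method the labels do not name, used here as an alternative. The deposited array medians ran from 66.1 to 144.5 intensity units, and the number of arrays limits the precision.

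The intensities were passed through neqc in limma 3.58.1 (R 4.3.3, with the package data.table in version 1.17.8), which estimates background from detection p-values, adds an offset (16), normalizes by quantiles and takes log2. Probes with a detection p under 0.01 on 6 or more arrays were kept (15363), and the brightest stood for each gene, giving 11346 genes or unnamed probes. Gene names came from platform annotation updated through a RefSeq gene table (GRCm38.p6) for 23962 probes by gene identifier and 9 by accession. One linear model of 8 group means (lmFit, eBayes, 101 residual degrees of freedom) gave all contrasts, two-sided, with Benjamini-Hochberg adjustment over all genes and a threshold of 0.05. On simulated data the fit recovered all of the larger and most of the smaller changes that had been set. The simulated noise was drawn separately for each gene, with no spread shared by the genes of an array. It therefore does not show how many calls in the real arrays are false.

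The members and the 39 gene lists were chosen with earlier results of these data known; 1 list is not reported here. The text names Fam13a and its paralogues, Tmem204, Gdpd2, the 12 largest rises and falls, the 6 smallest adjusted p, the 5 smallest of the other comparisons past the threshold, and up to 4 called members of a list; predicted and clone names were counted, not named. Members of a list beyond these were named after their values were seen. Alternatives changed the scaling, background, probe filter, arrays, groups, weights and blocks, and 3 covariates were added after seeing the data. No numbered pairing links the groups.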

Additional observations from a re-analysis of the deposited data

Results flagged for a closer look

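The genotype difference under smoke minus that in air passed the threshold for 5 named genes, tested as a term of the fit: Tmem204 (-0.72), Myh9 (-0.72), Gdpd2 (1.25), Hdac5 (-0.68) and C1rl (0.77), all in log2 units. All of these changed sign between smoke and air. With blocks of 8 consecutive sample numbers in the fit, the positive terms of Gdpd2 and C1rl did not pass.

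Of the 82 named genes read in the 6 Fam13a-/- air arrays, 5 had 1 array far from the rest, where chance sets 1 array apart in about 1 group in 20. Taf15 was at 6.96 on replicate 4, with the next array at 8.47. Drc3 was at 8.98 on replicate 6, with the next at 9.47, and Mybpc3 was at 6.11 on the same replicate, with the next at 5.01. Kcnrg was at 9.17 on replicate 5, with the next at 8.62, and Serpina9 was at 5.44 on replicate 3, with the next at 5.85.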

How the results depend on the processing

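The count of 706 genes under smoke held within 1.5 times under 12 of 16 alternatives. It fell to 164 (65.9% higher) with median scaling, to 355 (180 and 175) without the 11 arrays of fewest detected probes, 3 of them Fam13a-/- smoke and 0 wild-type smoke, to 353 with the heart muscle level as covariate and to 0 with the ciliated level. Array weights gave 1037 with the split turned (491 higher, 546 lower). Leaving out 1 array gave 471 (Fam13a-/- smoke replicate 11) to 831 (replicate 3). In air the count of 0 became 316 with array weights and 1 with blocks of 8 consecutive sample numbers, and 0 to 1 without 1 array. The 6 interaction genes became 0 with median scaling, without those 11 arrays and with the ciliated level. They became 1 with the share of detected probes and 2 with the heart muscle level, all negative. With blocks 0 positive and 15 negative interactions passed, so the positive ones of Gdpd2 and C1rl were lost. All Fam13a-/- air arrays have lower sample numbers than most wild-type air arrays, so genotype in air is not separate from sample order. The interaction count was 20 with C57BL6 groups alone, 727 with array weights and 1 to 12 without 1 array. Against Hhip+/-, 1544 became 476 with median scaling (362 and 114), 871 with the ciliated and 999 with the heart muscle level. The cause was not tested.

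Fam13a differed by -1.12 to -0.19 and never passed. Named genes turned sign with the ciliated level alone: Ccdc113 (-0.046), which is itself part of that level, Chst3 (0.020), Cyp2s1 (-0.15), Serping1 (0.0062) and Sparc (0.067). Of 78 named genes called, 46 stayed called whichever array was left out, and 0 under all 16 alternatives. Differences of dim genes shrink in the deposited log2 values, among them those of Cyp1a1 (-0.44), Ahrr (-0.19), Reg3g (0.69), Gtsf1l (0.68) and Adipoq (0.65). No paired analysis was possible because the labels give no replicate number that the groups share.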
